A study of Mus musculus with 2 samples.

Results

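The genes of arginine metabolism examined here were Nos2, Slc7a2, Ass1 and Odc1, 4 of 6 chosen among the 32285 features counted in each of 2 single-cell RNA libraries of mouse tumors. They were taken by their symbols, and the rule itself used no measured value. The genes were, however, chosen with earlier results of these data known. The tumors were MC38, a mouse colon carcinoma line grown under the skin of C57BL/6 mice aged 6 to 8 weeks. One library came from tumors injected with MSA-2, a small molecule that activates the innate immune adaptor STING, in 3 doses given 3 days apart. The other carried the label untreated, negative control, although the design text describes its mice as injected with vehicle, saline containing DMSO. It is called untreated below. Both groups carried the same MC38 tumor. Material from 3 mice was pooled per condition, so each condition was represented by 1 library and no difference could be tested between mice. The methods state that the cells were sorted but name no gate, so shares of cells could have been set by the sort.

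Arginine is used for protein, nitric oxide, creatine and polyamines. The inducible nitric oxide synthase encoded by Nos2 oxidises it to nitric oxide and citrulline. Slc7a2 encodes the cationic amino acid transporter CAT2 through which myeloid cells take up arginine, Ass1 encodes argininosuccinate synthase, which returns citrulline to the path to arginine, and Odc1 encodes ornithine decarboxylase, the entry enzyme of polyamine synthesis. Nos2 is a familiar gene of inflamed macrophages.

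After filtering, 13334 untreated and 13393 MSA-2 cells were kept of 14386 and 14617 barcodes, with 198135335 and 204387165 unique molecular identifiers (UMIs, each standing for 1 captured RNA molecule) in all barcodes. The libraries shared 53 barcodes. Clusters were named from marker lists as X-like, and none of these genes was used in clustering. The label called the cells tumor cells and the methods speak of immune cells. However, epithelial-like cells made up 49.2% of the untreated library and 52.5% of the MSA-2 library. That name rested on 3 of 8 listed markers, Gng11, Ccn1 and Anxa1, since the keratins Krt7, Krt8, Krt18 and Krt19 and Epcam were at or below 0.662 CPM there (UMIs of a gene scaled to a common total, as a rate of the UMIs of its class). Myeloid-like cells (macrophages, monocytes and dendritic cells) made up 31.0% and 13.2%, neutrophil-like cells 0.322% and 19.8%, and cells of both names differed in depth, with medians of 5579 and 4399 UMIs in myeloid-like and 1294 and 1796.5 in neutrophil-like cells. Levels below are CPM of the summed UMIs of a class. Exact 95% intervals cover counting error only, not variation between mice.

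All 4 genes are protein coding and on the plus strand in GRCm38, the build called mm10 in the submitters' notes. Odc1 (ENSMUSG00000011179) is at chr12:17544794-17551505. Nos2 (ENSMUSG00000020826) is at chr11:78920787-78960254, Slc7a2 (ENSMUSG00000031596) at chr8:40862396-40922308 and Ass1 (ENSMUSG00000076441) at chr2:31470207-31520672.

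The cells that held each transcript were compared first. Myeloid-like cells held 82.1% of all Slc7a2 UMIs without treatment, but after MSA-2 58.3% lay there and 22.6% in fibroblast-like cells, up from 5.30%. Nos2 and Odc1 had their UMIs mainly in epithelial-like cells instead. These cells held 88.6% and 90.0% of Nos2 UMIs and 79.2% and 92.0% of Odc1 UMIs, where 80.8% and 85.0% of the UMIs of all genes lay, so that the untreated Odc1 share was no higher than that of all genes. Of the UMIs of all genes, myeloid-like cells held 13.3% and 4.50% and fibroblast-like cells 1.33% and 5.60%. Ass1 UMIs in fibroblast-like cells went from 2.53% to 39.8%, while the myeloid-like share went from 74.6% to 38.6%.

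**Figure D1:**
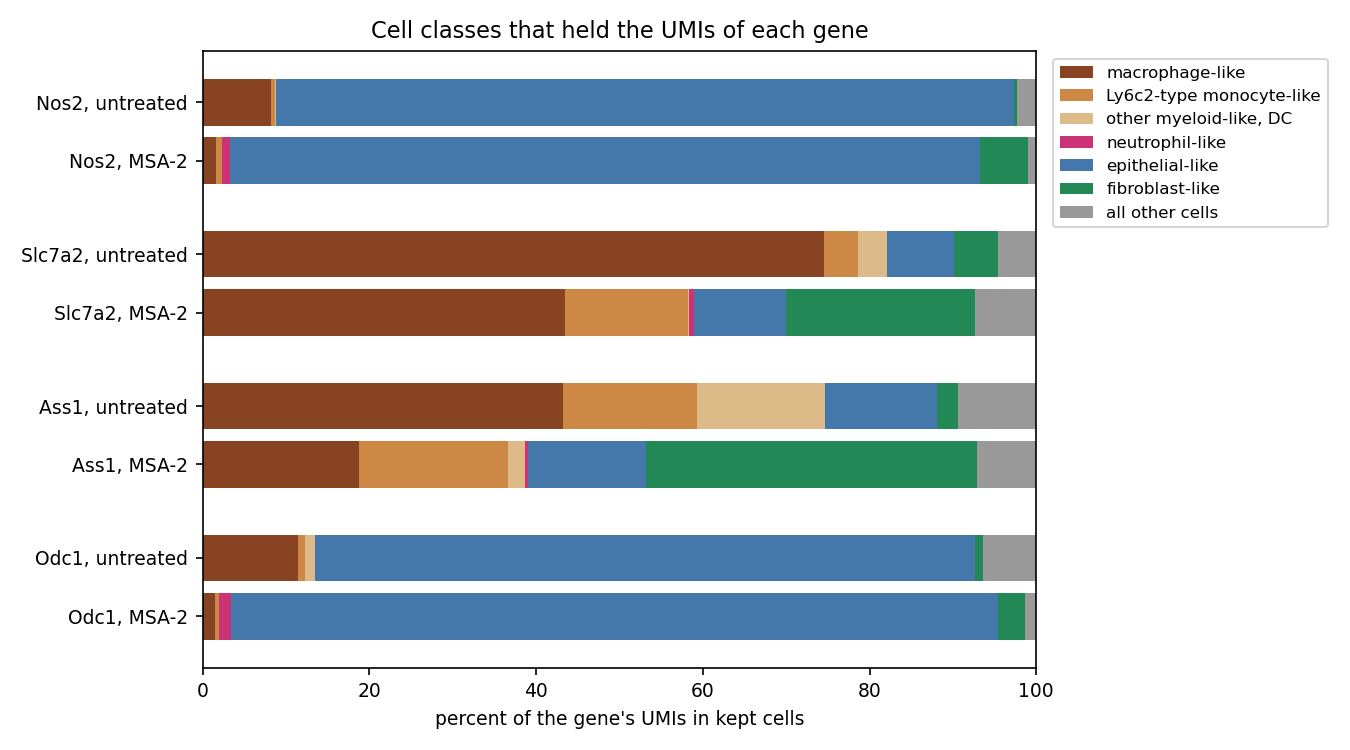
Percent of each gene's UMIs in kept cells (x axis) by cell class (colors) for each gene and library (rows), with resident macrophage-like cells joined to macrophage-like cells. Nos2 and Odc1 were held mainly by epithelial-like cells in both libraries, and the fibroblast-like part of the Ass1 bar went from 2.53% to 39.8%.

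Levels over all kept cells mix levels within classes with class sizes. Slc7a2 was at 13.6 CPM without treatment and at 23.3 CPM after MSA-2. With the untreated levels of every class and the class sizes of the MSA-2 library, it would have been at 7.94 CPM. With MSA-2 levels and untreated sizes it would have been at 46.7 CPM. Ass1 was at 11.9 and 9.74 CPM over all cells, against 66.3 and 83.5 CPM within myeloid-like cells, so that its direction over all cells differed from that within this class. For Nos2, at 14.8 and 196 CPM over all cells, the same arithmetic gave 14.8 and 188 CPM, so that with untreated levels its total was the same at either set of class sizes.

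Nos2, the inducible nitric oxide synthase, had the largest log2 ratio of the 4 genes over all kept cells (3.73), and most of its UMIs lay in epithelial-like cells. It was at 16.2 CPM (15.6 to 16.9; 2400 UMIs) in 6555 untreated and 208 CPM (206 to 210; 33909 UMIs) in 7031 MSA-2 epithelial-like cells, 12.8-fold higher (log2 ratio 3.68, interval 3.62 to 3.74). To compare shares of cells with a UMI at equal depth, every cell was thinned to a depth of 1500 UMIs, without the cells below it. Thinned cells with a UMI made up 2.66% and 24.4% (16.9% and 74.1% without thinning), against 0.694% and 2.96% of NK/T-like cells (median 3290 and 4435 UMIs in the untreated and MSA-2 libraries), where Nos2 was at 2.52 and 20.1 CPM. NK/T-like values are given beside those of Nos2, Slc7a2 and Ass1 for comparison only, since they were not the lowest after MSA-2, when neutrophil-like cells had 4.90 CPM of Slc7a2 and 1.37 CPM of Ass1 and NK/T-like cells 12.8 and 10.4 CPM. Cells with at least 10 Nos2 UMIs numbered 19 and 1132. The transcript was also held by more of the cells, as 50% of it lay in 211 untreated cells (3.22%) and 792 MSA-2 cells (11.3%). Within epithelial-like cells the 10 neutrophil markers summed to 7.05 and 490 CPM and the 10 macrophage markers to 765 and 213 CPM, and their part in the ratio was not tested.

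Every one of the 10 epithelial-like clusters had a higher Nos2 level in the MSA-2 library, with log2 ratios of 2.47 to 3.97. The highest level in both libraries was in the cluster led by Pcdh9, Ednra and Glis3, with 71.3 CPM without treatment (81 cells) and 591 CPM after MSA-2 (1154 cells), and Nos2 was among its leading genes. Next in the MSA-2 library came the cluster led by Ero1l, Ankrd37 and Bnip3, genes known to respond to low oxygen, with 48.9 and 317 CPM. The lowest level was in the cluster led by Car6, with 6.73 and 97.2 CPM. The Pcdh9 cluster held 1.24% of the epithelial-like cells without treatment and 16.4% after MSA-2, and a cluster led by Galnt13 (25.0 and 243 CPM) held 1.39% and 21.7%. Without both, the log2 ratio of Nos2 was 3.20.

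**Figure D2:**
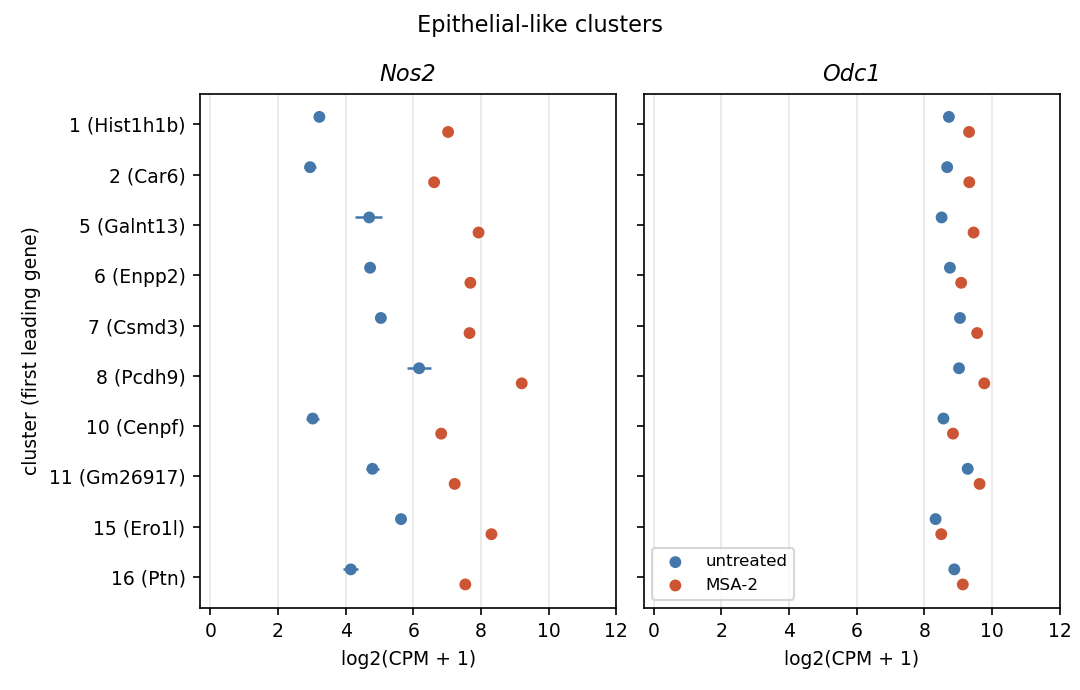
Level, log2(CPM + 1), of Nos2 and Odc1 (panels) in the 10 epithelial-like clusters, each named by its first leading gene, with exact 95% counting intervals. Nos2 and Odc1 were higher in the MSA-2 library in 10 of 10 clusters, and Nos2 peaked at 591 CPM in the Pcdh9 cluster.

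In fibroblast-like cells, a single cluster, Nos2 was at 3.27 CPM without treatment (8 UMIs in 201 cells) and 203 CPM after MSA-2 (2176 UMIs in 698 cells), a log2 ratio of 5.95 (4.97 to 7.17) that was 5.28 with doublets kept. That level overlapped the level of epithelial-like cells in the MSA-2 library. Macrophage-like cells had 11.3 and 112 CPM (3.31, 3.08 to 3.55) and monocyte-like cells 5.26 and 106 CPM (4.33, 3.47 to 5.35), which overlapped each other after MSA-2. Without integration the ratio was 1.96 in macrophage-like cells and 0.85 in monocyte-like cells, the latter with an interval that held 0, and with doublets kept it was 2.52 in monocyte-like cells. Of the 6 macrophage-like clusters 5 were higher, and a cluster led by Gm15056, Inhba and Il7r (93 and 141 cells) had the highest level in both libraries, with 131 and 412 CPM. Below them stood resident macrophage-like cells at 71.0 CPM, neutrophil-like cells at 70.0 CPM and endothelial-like cells at 67.2 CPM, which overlapped in turn, and all of these were apart from NK/T-like cells. Without treatment the resident macrophage-like level, 24.4 CPM (10 UMIs in 66 cells), was the highest of 11 classes with at least 50 cells, with an interval that overlapped the next class. Its log2 ratio was 1.54 (0.60 to 2.64), and it ran from 1.005 at a clustering resolution of 0.5 to 2.49 with all variable genes. Untreated neutrophil-like cells had 0 Nos2 UMIs, for which a floor of 3 counts stood at 43.2 CPM and the exact upper bound at 53.1 CPM. The 8 listed fibroblast markers summed to 50640 and 25743 CPM within the fibroblast-like class and the 10 neutrophil markers to 39.3 and 835 CPM. The 8 B/plasma markers there summed to 1752 and 6.33 CPM and the 10 macrophage markers to 1509 and 392 CPM, and the part of these markers in the fibroblast-like ratios was not tested.

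Slc7a2, the transporter, was found mainly in myeloid-like cells and was higher in 3 of their classes after MSA-2. It was at 97.6 and 348 CPM in macrophage-like cells (log2 ratio 1.83, 1.74 to 1.93), at 48.8 and 279 CPM in monocyte-like cells (2.52, 2.21 to 2.83) and at 31.7 and 216 CPM in resident macrophage-like cells (2.77, 1.97 to 3.70). The last ratio was 1.22 at a clustering resolution of 0.5, 1.53 with doublets kept and 3.44 without integration. Among classes with at least 50 cells macrophage-like cells were highest in both libraries, and the order macrophage-like, monocyte-like, resident macrophage-like and fibroblast-like was apart at every step after MSA-2. Across macrophage-like clusters it was higher in 4 of 6, with log2 ratios of 0.65 to 2.30. The highest ratio was in the Gm15056 cluster (93 and 141 cells) at 200 and 982 CPM. A cluster led by Slc7a2 itself had the highest untreated level, with 240 and 441 CPM (0.88; 861 and 686 UMIs). It held 604 of 3015 untreated and 327 of 922 MSA-2 macrophage-like cells. What part such cluster sizes had in the class ratio was not tested. Thinned shares of myeloid-like cells were 7.31% and 18.7%, against 0.278% and 0.741% of NK/T-like cells. Fibroblast-like cells had 54.0 and 93.7 CPM (0.80, 0.53 to 1.07). Epithelial-like cells, at 1.36 and 3.05 CPM, were not above the NK/T-like levels of 2.18 and 12.8 CPM, with intervals that overlapped without treatment.

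The clusters and markers behind the myeloid-like classes bear on these values. The monocyte-like class was made of different clusters in the libraries, since 528 of its 548 untreated cells were in a cluster led by Ly6i and 562 of its 577 MSA-2 cells in a cluster led by Ifna2. In the Ifna2 cluster Slc7a2 was at 77.3 and 285 CPM (8 and 658 UMIs) and Nos2 at 9.66 and 108 CPM (1 and 249 UMIs). In the Ly6i cluster Slc7a2 was at 47.3 and 18.7 CPM (94 and 1 UMIs) and Nos2 at 5.03 and 18.7 CPM (10 and 1 UMIs), both with an interval that held 0. Summed marker levels also moved within the classes, and what part they had was not tested. The 10 neutrophil markers summed to 123 and 1336 CPM in macrophage-like cells (Cxcr2 and Ly6g were at 0 without treatment, and 0 of the 10 genes after MSA-2), 284 and 2836 CPM in monocyte-like cells and 41.0 and 1048 CPM in NK/T-like cells. In macrophage-like cells the macrophage list was at 43406 and 30658 CPM and the Ly6c2-type monocyte list at 1532 and 2944 CPM. There the resident macrophage list was at 618 and 1354 CPM, the fibroblast list at 271 and 526 CPM and the epithelial list at 426 and 615 CPM.

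**Figure D3:**
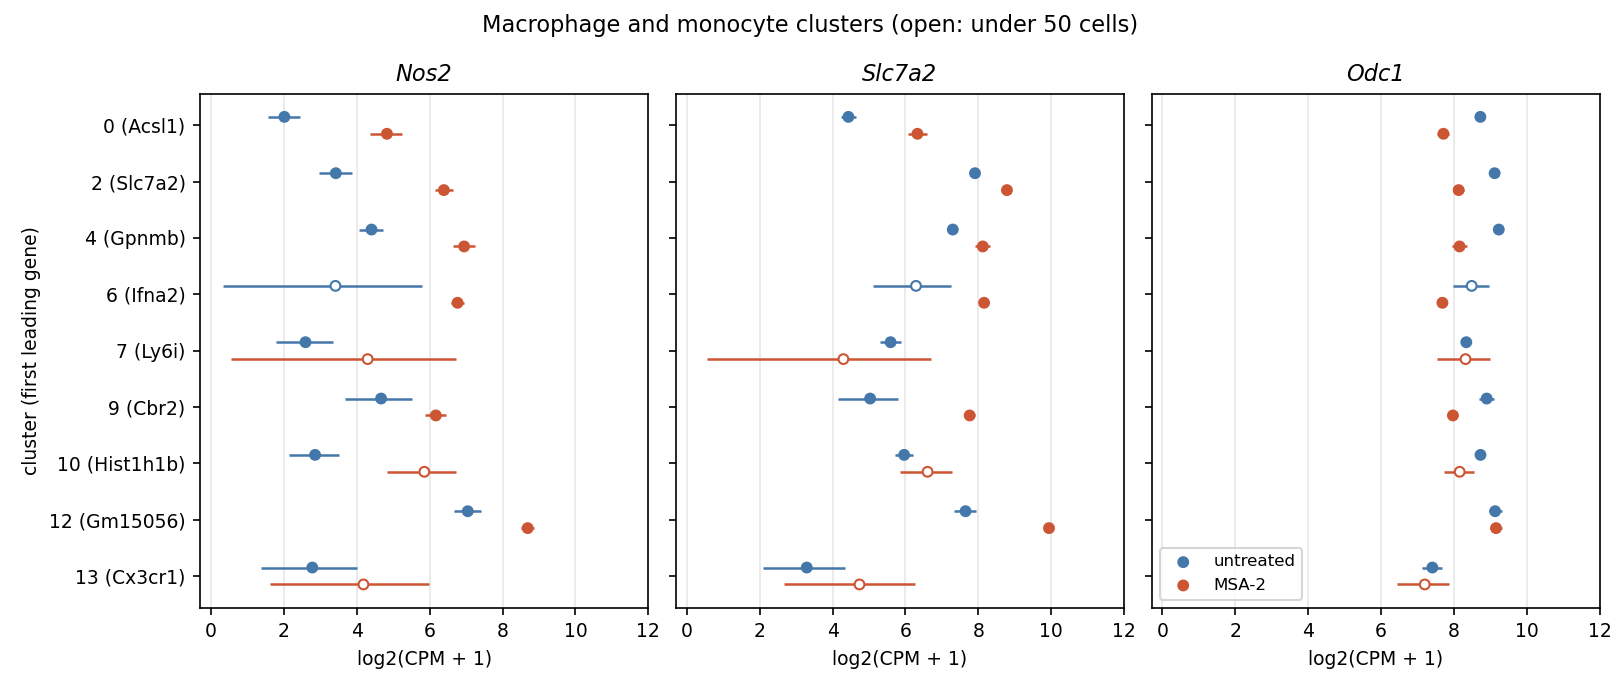
Level, log2(CPM + 1), of Nos2, Slc7a2 and Odc1 (panels) in 9 macrophage-like and monocyte-like clusters, each named by its first leading gene. Points are library sums, bars exact 95% counting intervals and open points groups of under 50 cells; in the Gm15056 cluster Slc7a2 stood at 200 CPM untreated and 982 CPM after MSA-2, while Odc1 stood at 559 and 568 CPM.

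Ass1, the citrulline-recycling enzyme, differed less and not in 1 direction. Over myeloid-like cells it was at 66.3 and 83.5 CPM (log2 ratio 0.33, 0.20 to 0.46), and over macrophage-like cells at 49.3 and 70.7 CPM (0.52, 0.33 to 0.70). Of the 6 macrophage-like clusters 2 were higher, 1 was lower and 3 had an interval holding 0, and without the Gm15056 cluster the macrophage-like ratio was 0.18, with an interval that held 0. Clustering at a resolution of 0.5 moved the myeloid-like ratio to -0.01, with an interval that held 0. In monocyte-like cells Ass1 was at 167 and 142 CPM (-0.23, -0.46 to -0.01), but that ratio was 0.03 under edgeR's TMM scaling and 0.56 without integration. Dendritic cells of the cDC2-like class had 132 CPM in 231 untreated cells and 261 CPM (23 UMIs) in 26 MSA-2 cells. Among named classes with at least 50 cells in both libraries the largest log2 ratio was in fibroblast-like cells, with 22.5 and 69.2 CPM (1.62, 1.22 to 2.04). Thinned shares there were 1.02% and 7.23%. However, the untreated level was not above the 24.4 CPM of NK/T-like cells, and their intervals overlapped. Epithelial-like cells had 1.99 and 1.62 CPM (-0.29, -0.53 to -0.04), below the 24.4 and 10.4 CPM of NK/T-like cells.

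Odc1, the entry enzyme of polyamine synthesis, was detected in every named class with at least 50 cells, and its direction differed between classes. In epithelial-like cells it was at 430 CPM (426 to 433) and 645 CPM (641 to 649), 1.501-fold higher after MSA-2 (log2 ratio 0.59, 0.57 to 0.60), and it was higher in 10 of 10 clusters (0.17 to 0.95). In myeloid-like cells it was at 443 and 259 CPM, 1.71-fold lower (-0.77, -0.84 to -0.71). Macrophage-like, resident macrophage-like and monocyte-like cells gave log2 ratios of -0.70, -0.93 and -0.65. Of the 6 macrophage-like clusters, 4 were lower with an interval below 0, and the Gm15056 cluster was at 559 and 568 CPM. NK/T-like cells had 711 and 283 CPM (-1.33, -1.47 to -1.19), the highest untreated level of any class. The 9 NK/T markers summed to 4488 and 2516 CPM in that class and the 7 mast markers to 29.4 and 293 CPM, and their part was not tested. Fibroblast-like cells had 317 and 349 CPM (0.14, 0.03 to 0.25) and endothelial-like cells 216 and 333 CPM (0.62, 0.33 to 0.92). In neutrophil-like cells Odc1 was at 403 and 326 CPM, with an interval that held 0 and a sign that turned under TMM scaling (0.77) and with a stricter filter on cells (1.36). The 10 neutrophil markers summed to 22157 and 100383 CPM in this class, with Ly6g at 0 in the 43 untreated cells, and their part was not tested. Thinned shares with a UMI were 44.6% and 56.1% in epithelial-like and 39.6% and 29.1% in myeloid-like cells.

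Of the 4 members, only Ass1 and Odc1 had an entry among the RefSeq promoter windows (GRCm38.p6), and their sequences are shown for that reason. These 2 genes also had ratios of opposite signs in myeloid-like and epithelial-like cells, and a link between sequence and ratio was not tested. The bases shown are those ahead of both the RefSeq and the GENCODE start. They cover chr2:31470020-31470206 for Ass1 (187 bases) and chr12:17544623-17544793 for Odc1 (171 bases), both plus strand and 5′ to 3′, and capitals mark the GC box GGGCGG on either strand.
Ass1: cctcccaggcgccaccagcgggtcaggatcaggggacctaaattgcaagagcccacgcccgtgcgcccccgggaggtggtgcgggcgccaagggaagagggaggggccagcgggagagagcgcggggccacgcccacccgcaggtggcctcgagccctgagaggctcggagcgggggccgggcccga
Odc1: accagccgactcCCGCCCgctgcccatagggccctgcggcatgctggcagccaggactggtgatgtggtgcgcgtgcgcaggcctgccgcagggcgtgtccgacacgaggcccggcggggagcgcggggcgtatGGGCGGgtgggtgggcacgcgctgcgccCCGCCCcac
The printed Odc1 bases hold 3 GC boxes and the printed Ass1 bases 0. In the 250 bases before each RefSeq start, Odc1 has 4 and Ass1 1, and 32.7% of 32851 such windows hold this motif. The E-box CACGTG, read on both strands, occurs 1 time in the Ass1 window and is not among the letters of the Odc1 window, and 6.02% of windows hold it. Neither motif contains the other, and a match is a description of sequence only.

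**Figure D4:**
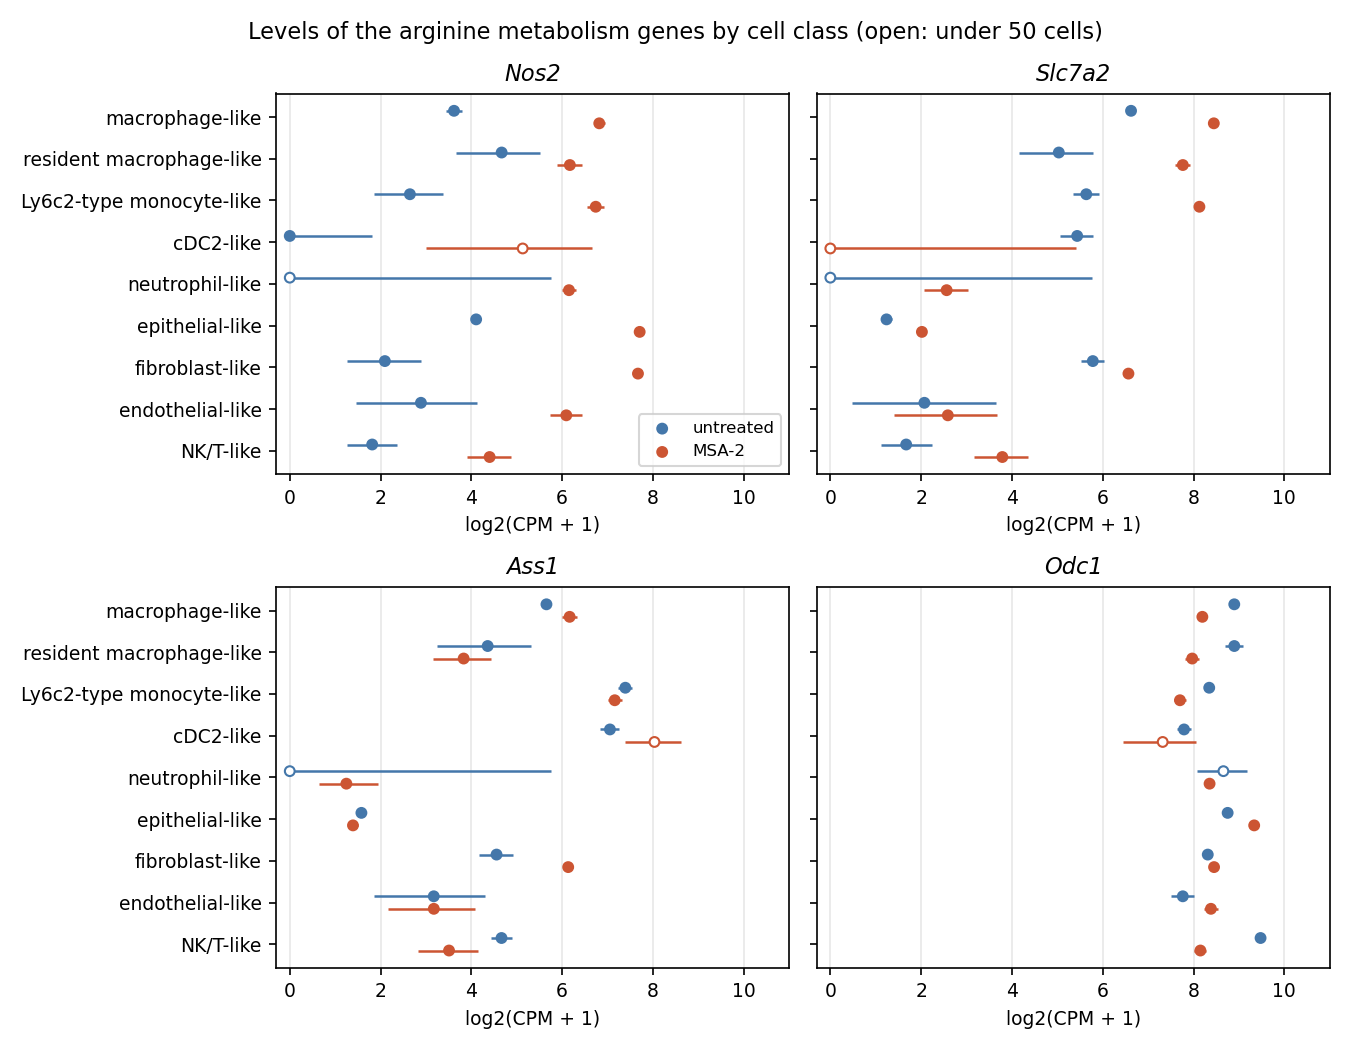
Level, log2(CPM + 1), of the 4 genes (panels) in 9 cell classes, untreated in blue and MSA-2 in red, with exact 95% counting intervals and open points for under 50 cells. Slc7a2 was high in macrophage-like and monocyte-like cells, and Nos2 after MSA-2 in epithelial-like and fibroblast-like cells (208 and 203 CPM).

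Read against all genes with at least 50 UMIs in the class, the members were counted past a 2-fold difference in either direction. In myeloid-like cells 2 of 4 members (Nos2 and Slc7a2) were higher by 2-fold or more, where 7.64% of genes were, and 0 were lower, where 7.16% were. In epithelial-like cells 2 of 4 were higher (Nos2 and Slc7a2; background 8.99%) and 0 lower (background 5.32%), although Slc7a2 was not above its NK/T-like level there. Macrophage-like cells had 2 of 4 higher (background 5.76%) and 0 lower (background 5.10%), and monocyte-like cells 2 of 4 higher (background 10.8%) and 0 lower (background 12.8%). The neutrophil-like comparison rested on 43 untreated cells and took in 2 members, of which 0 were lower (background 31.0%). Nos2, with 0 untreated UMIs, was counted as higher like any gene at 0 there (background 17.3%), but its 70.0 CPM were under 2-fold above the 43.2 CPM of 3 counts, so a 2-fold difference was not shown. In fibroblast-like cells 2 of 4 were higher (Nos2 and Ass1; background 7.28%) and 0 lower (background 7.56%), with untreated Ass1 not above its NK/T-like level. The median log2 ratios over all genes ran from -0.60 in neutrophil-like to 0.05 in epithelial-like cells. TMM scaling raised every ratio by 0.26 in monocyte-like, 1.08 in neutrophil-like, 0.20 in fibroblast-like, 0.18 in resident macrophage-like and 0.17 in endothelial-like cells, and changed it by -0.19 in cDC2-like cells.

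**Figure D5:**
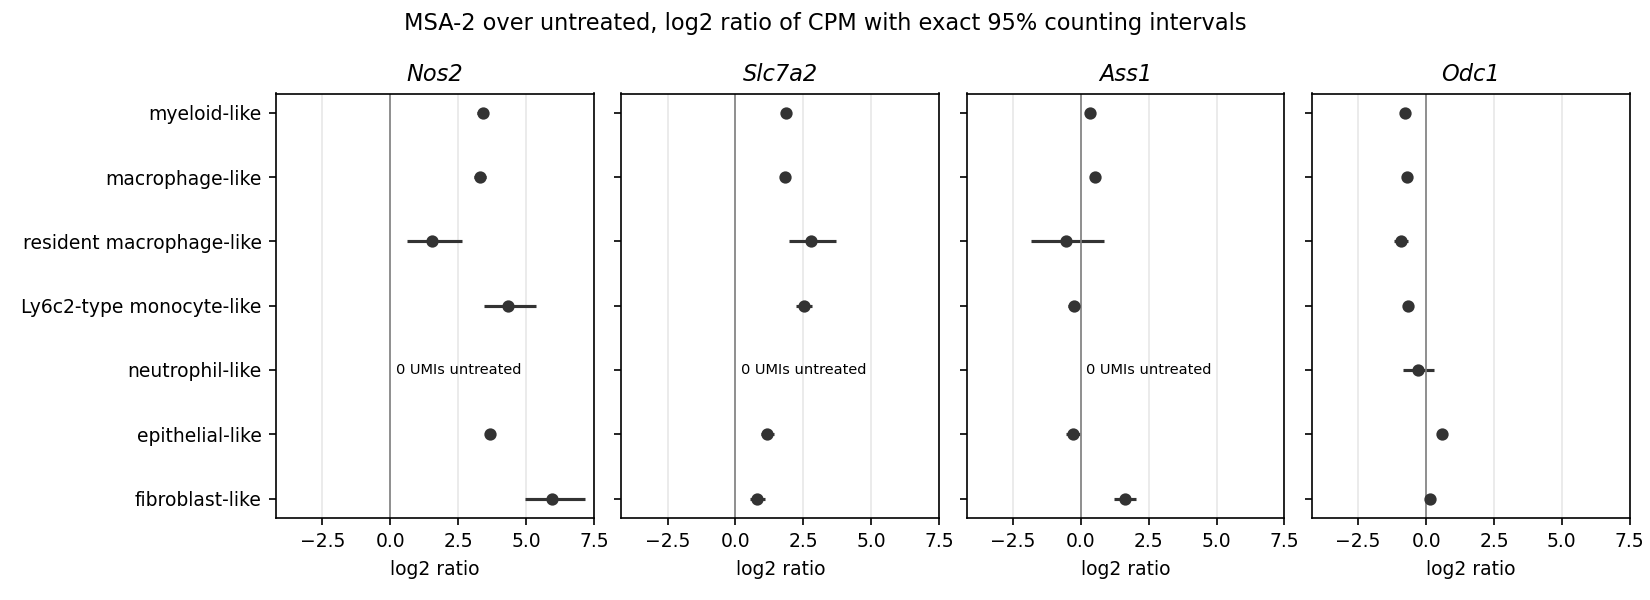
Log2 ratio of CPM, MSA-2 over untreated, for the 4 genes (panels) in 7 classes, with exact 95% intervals that cover counting error only and a line at 0. Nos2 was to the right of 0 in every class with a ratio, and Odc1 was to the left in myeloid-like classes and to the right in epithelial-like cells (-0.77 and 0.59).

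Slc7a2 brings in the arginine that Nos2 uses, and whether the same macrophage-like cells carried both was examined at 1500 UMIs per cell. In the untreated library Slc7a2 was seen in 21.3% (10.7 to 35.7) of 47 cells with Nos2 and in 8.31% (7.34 to 9.36) of 2960 cells without it. In the MSA-2 library it was seen in 38.2% (29.6 to 47.4) of 123 cells with Nos2 and in 18.1% (15.4 to 20.96) of 780 cells without it. The intervals were apart in both libraries. Macrophage-like cells with both genes made up 0.333% and 5.20%. In MSA-2 monocyte-like cells the shares were 28.0% (18.2 to 39.6) with Nos2 and 16.6% (13.4 to 20.1) without it, which overlapped. Untreated, 0 of 5 monocyte-like cells with Nos2 had Slc7a2. The macrophage-like class pools clusters, and the Gm15056 cluster had high levels of both genes after MSA-2 (412 and 982 CPM). What part this pooling had was not tested. This pair was chosen after its values were seen. Cells of 1 library are not replicates, and these shares describe the libraries only.

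Other genes of the pathway were taken from a list of 52, of which 51 were in the files. In myeloid-like cells 45 had at least 10 UMIs, and 10 were higher, 17 lower and 18 had an interval holding 0. By the same rule 20.2% of all genes were higher and 34.1% lower, close to the 10 and 17 of 45. The list had a median log2 ratio of -0.17 against -0.15 over all 15143 genes. Among the genes of nitric oxide and its cofactor, Gch1, the first enzyme of tetrahydrobiopterin synthesis, on which nitric oxide synthases depend, was at 84.8 and 185 CPM (1.13), whereas the later enzymes Pts, Spr and Qdpr were lower (-0.42 to -0.59). In transport, Slc7a1, the widely used arginine carrier, was at 44.8 and 27.2 CPM (-0.72), opposite in sign to Slc7a2. Of 13 polyamine genes 3 were higher (background 20.2%) and 6 lower (background 34.1%). The higher ones were Smox (157 and 295 CPM, spermine oxidase), Sms (spermine synthase) and Azin1, an inhibitor of antizyme, and Oaz1, antizyme itself, was at 993 and 638 CPM (-0.64). Gatm and Ckb, the creatine genes that use arginine and store phosphate, were at 293 and 70.2 CPM (-2.06) and at 206 and 74.4 CPM (-1.47). Oat, which passes ornithine to proline, was at 47.8 and 32.2 CPM (-0.57).

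In epithelial-like cells 47 listed genes were measured, of which 14 were higher, 28 lower and 5 had an interval holding 0, where 37.4% of all genes were higher and 30.1% lower. The list had a median of -0.11 against 0.03 over 19818 genes. Deep counts gave narrow intervals here, and only Nos1, Nos3 and Ckb passed 2-fold, each at or below 5.42 CPM. Beside Odc1, 3 of 13 polyamine genes were higher (background 37.4%) and 9 were lower (background 30.1%). The higher ones were Smox (11.1 and 19.9 CPM, 0.84), Sms (59.4 and 80.5 CPM, 0.44) and Srm (208 and 224 CPM, 0.10). Gch1 was at 7.44 and 8.25 CPM (0.15). Of the 8 listed regulators, 6 were higher (background 37.4%) and 2 lower (background 30.1%). Among the higher ones were Cebpb (231 and 321 CPM, 0.48), Irf1 (231 and 306 CPM, 0.40), Nfkb1 (335 and 419 CPM, 0.32) and Myc, a known driver of Odc1 (99.3 and 116 CPM, 0.22). In myeloid-like cells 4 of the 8 were higher (background 20.2%), namely Irf1 (135 and 187 CPM, 0.47), Il4ra (0.32), Nfkb1 (0.25) and Myc (19.5 and 23.6 CPM, 0.27). Atf4 was lower there (-0.20; background 34.1%). Nfkb1 was lower in macrophage-like cells (622 and 560.2 CPM, -0.15) and higher in monocyte-like cells (566 and 1131 CPM). Monocyte-like cells had 1 of the 8 higher (background 16.8%) and 3 lower (background 30.6%), namely Cebpb (1988 and 864 CPM, -1.20), Hif1a (-0.70) and Atf4 (-0.58). The intervals of Irf1, Il4ra and Myc held 0 in those cells. Macrophage-like cells had 10 listed genes higher (background 17.0%) and 16 lower (background 26.8%) of 45. Monocyte-like cells had 6 listed genes higher (background 16.8%) and 18 lower (background 30.6%) of 40. Fibroblast-like cells had 9 higher (background 15.1%) and 16 lower (background 26.2%) of 45, and neutrophil-like cells 0 higher (background 2.41%) and 7 lower (background 12.8%) of 37. Under TMM scaling the counts higher and lower were 6 and 0 in neutrophil-like cells (9.53% and 2.64% of all genes) and 14 and 10 in fibroblast-like cells (22.1% and 17.1%). They were 8 and 12 in monocyte-like cells (22.3% and 19.0%) and 15 and 15 in myeloid-like cells (23.3% and 27.9%). Macrophage-like cells had 10 and 13 (18.6% and 23.1%), and epithelial-like cells 11 and 31 of 47 (32.8% and 34.4%).

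Over 19 class-by-library groups with at least 50 cells, the genes whose levels ran most like each member were ranked among 6664 genes by Pearson's r of log2(CPM + 10). The points share libraries and clusters, and the values are descriptions. Nos2 ran with Gm47080 (0.90), Slc25a37 and Ptges (0.86 each). Slc7a2 ran with Mitf (0.91), Spon1 and G530011O06Rik (0.90 each), Ass1 with Scand1 (0.86), Med13l (0.82) and Cxcl16 (0.80), and Odc1 with Mphosph10 (0.73), Cebpz (0.70) and Aatf (0.68). With 1 CPM added in place of 10, 1 of the 3 genes remained for Nos2 and Ass1, 2 for Odc1 and 3 for Slc7a2.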

How the data were processed

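Per the labels and file headers, the authors made 3′ (v3.1) droplet libraries and deposited filtered UMI counts per gene and cell, which are raw whole numbers. The submitters' processing notes name Cell Ranger 7.0.0, Seurat 4.3.0 and the build mm10, and the file header names Cell Ranger 7.0.1. Barcodes under 500 genes or above 20% mitochondrial UMIs were removed. Doublets called by Scrublet (scanpy 1.11.5) at an expected 0.8% per 1000 barcodes, 5.02% and 4.08% of the cells passing, were also left out. Cells were clustered in Seurat 5.3.0 (2000 variable genes, 30 dimensions, reciprocal PCA, resolution 1) without the members, the pathway list and 226 features of an interferon name pattern written after the feature names were known. Clusters were named by a marker score, with at least 3 markers of a list detected, a rule refined after a first version had misnamed tumor clusters. Neutrophil-like cells were taken from the top-level clustering after the sub-clusters were seen.

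CPM values are the summed UMIs of a gene over those of its class, on the usual CPM scale. Poisson, Clopper-Pearson and conditional binomial intervals have a 95% level, a floor is 3 counts, and UMI intervals cover counting error only. With 1 library per condition no p-value was computed. The computation of the ratio intervals was checked on simulated Poisson counts, the model they assume. That check held no variation between mice, cells or clusters, so it cannot show how well the intervals suit these data. TMM factors came from edgeR 4.0.16. Named genes were the members, pathway genes of at least 50 CPM past 2-fold in myeloid-like or epithelial-like cells, pathway genes behind counts of 5 or fewer, and the 3 genes most like each member; other pathway genes, such as Oaz1 and the regulators in epithelial-like cells, were chosen after their values were seen. Among the genes chosen, 2 members and 1 gene of the pathway list are not reported here. The members and lists were chosen with earlier results of these data known.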

Additional observations from a re-analysis of the deposited data

Results flagged for a closer look

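The direction of the log2 ratio differed between myeloid-like and epithelial-like cells for 2 of the 4 genes. Odc1 was at -0.77 in myeloid-like and 0.59 in epithelial-like cells. For Ass1 the values were 0.33 and -0.29, but its level in epithelial-like cells was below that of NK/T-like cells of the same library, and its myeloid-like ratio changed sign at a clustering resolution of 0.5. With 1 library per condition the difference between the classes was not tested.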

How the results depend on the processing

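Every ratio rests on 1 library per condition. No paired analysis was possible because each condition had 1 library. Cell number limits neutrophil-like cells, with 43 untreated cells, and UMI counts limit sparse members such as Ass1 in epithelial-like cells. In myeloid-like cells the log2 ratio of Nos2 was 3.17 at resolution 0.5 and 3.19 with doublets kept. Slc7a2 was 1.94 with TMM scaling and 2.03 with equal weight per cell, Odc1 -0.64 with doublets and -0.68 with TMM, and Ass1 turned to -0.013 at resolution 0.5. In epithelial-like cells Nos2 was 3.34 without integration and 3.61 with TMM, Odc1 0.53 and 0.52, and Slc7a2 0.89 with equal weight.

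In alternatives chosen after seeing the data, which include the pathway counts under TMM scaling, the ratios without the Gm15056 cluster in myeloid-like cells were 1.61 for Slc7a2 and -0.90 for Odc1. Without the Pcdh9 and Galnt13 clusters, whose shares differed 10-fold or more, the epithelial-like ratios were 3.20 for Nos2 and 0.47 for Odc1. When the libraries were not integrated, monocyte-like Ass1 was 0.56, and it was 0.026 with TMM. The causes were not tested. Other ratios of the 4 genes kept their direction in myeloid-like and epithelial-like cells under the alternatives run.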

Other observations

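Cells in clusters left without a name, 788 untreated and 835 MSA-2, also held the genes. Nos2 was at 27.8 and 169 CPM, Slc7a2 at 58.7 and 197 CPM and Odc1 at 434 and 408 CPM, the last with an interval that held 0. In the unnamed cluster led by Ifnb1 Ass1 was at 51.7 and 91.2 CPM. These cells entered the levels over all kept cells and no named class.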
